A study of Mus musculus with 4 samples.

Results

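Stressed cardiomyocyte nuclei were chosen by their measured RNA counts in mouse ventricles, as heart muscle nuclei that carried transcripts of Ankrd1 or Nppb. A barcode was kept with at least 300 genes detected and at most 20% of its unique molecular identifiers (UMIs, 1 per captured transcript) from mitochondrially encoded genes. It entered the cardiomyocyte gate when the muscle genes Ttn and Ryr2 gave at least 1.5% of its other UMIs, while the fibroblast genes Pdgfra, Col1a2 and Dcn, and the endothelial genes Flt1, Ptprb and Pecam1, each gave under 0.15% in sum. Within that gate a nucleus was called stressed with at least 3 UMIs of Ankrd1 and Nppb together, and a zero nucleus with none. Of 19584 kept barcodes, 2310 passed the gate and 879 of these were stressed, against 557 with 1 or 2 UMIs and 874 zero nuclei. Ankrd1, Nppb and the other 8 genes of the gate chose the nuclei, so their values are given as a description and without a test.

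The hearts came from wild-type C57BL/6J mice of both sexes that were 8 weeks old at the start. They either stayed sedentary or had access to a running wheel, used voluntarily, for 16 weeks. Ventricles were then frozen from 2 sedentary and 2 running mice. A further 4 sedentary and 4 running mice had infarct surgery and were sampled 2 weeks later. The hearts of a group were pooled, their nuclei sorted on the DNA stain Hoechst and 1 well was used per group. There was thus a single library for each of the 4 groups (n = 1), and hearts and sexes within a pool cannot be told apart. Values are always given in the order sedentary, running, sedentary infarct and running infarct.

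Ankrd1 encodes a muscle ankyrin repeat protein that binds titin in the I-band of the sarcomere, also enters the nucleus as a transcription cofactor, and is induced in ventricular muscle under mechanical load. Nppb encodes the precursor of brain natriuretic peptide, a hormone that ventricles release under wall stress and that promotes sodium excretion and vasodilation. In the adult ventricle both genes, together with Nppa and the skeletal actin gene Acta1, are classical readouts of the fetal gene programme that reappears in overloaded muscle.

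The proximal promoters of these 4 genes are shown because the first pair defined the nuclei and the other pair were among the genes that followed them. Each run holds the 250 bases before the transcription start in the RefSeq table of build GRCm38.p6, looked up by symbol, since the counts themselves were made on another build. Capitals mark the M-CAT core CATTCC or its reverse complement GGAATG, the core that TEAD transcription factors bind.
Ankrd1, chr19:36119845-36120094, minus strand: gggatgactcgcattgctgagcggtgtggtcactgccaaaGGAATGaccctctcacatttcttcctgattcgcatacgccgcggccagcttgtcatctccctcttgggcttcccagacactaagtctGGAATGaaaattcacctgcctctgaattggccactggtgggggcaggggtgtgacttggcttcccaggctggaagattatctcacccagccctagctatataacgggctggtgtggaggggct
Nppb, chr4:147985650-147985899, plus strand: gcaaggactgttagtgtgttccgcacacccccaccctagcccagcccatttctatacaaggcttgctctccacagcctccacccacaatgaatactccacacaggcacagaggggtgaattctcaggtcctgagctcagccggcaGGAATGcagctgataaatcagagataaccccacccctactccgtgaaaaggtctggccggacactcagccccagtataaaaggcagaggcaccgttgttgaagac
Nppa, chr4:148000472-148000721, plus strand: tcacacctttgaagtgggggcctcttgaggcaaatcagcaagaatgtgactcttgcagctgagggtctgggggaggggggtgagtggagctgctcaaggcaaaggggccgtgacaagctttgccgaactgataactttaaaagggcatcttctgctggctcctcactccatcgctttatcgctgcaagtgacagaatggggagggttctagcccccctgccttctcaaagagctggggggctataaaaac
Acta1, chr8:123894776-123895025, minus strand: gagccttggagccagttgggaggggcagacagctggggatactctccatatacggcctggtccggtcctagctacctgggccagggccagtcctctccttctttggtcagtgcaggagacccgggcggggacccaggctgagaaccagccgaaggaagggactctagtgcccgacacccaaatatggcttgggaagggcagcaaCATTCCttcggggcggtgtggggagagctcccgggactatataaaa
Ankrd1 held the M-CAT core at 2 places, Nppb and Acta1 at 1 each, and the letters were not in this window of Nppa. Of all 32851 promoters in the table, 12.6% held the core on either strand. The GATA motif AGATAA, or TTATCT on the other strand, was present in the windows of Ankrd1 and Nppb and in 9.99% of all promoters. These matches describe the letters and not binding.

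The libraries held 26170995 to 37533722 UMIs, and 46 barcode sequences occurred in more than 1 library, none of them among stressed nuclei. The cardiomyocyte gate held 881, 730, 372 and 327 nuclei, or 16.5, 11.9, 11.6 and 6.67% of kept barcodes. Stressed nuclei were deeper, with medians of 10127, 10282, 11721 and 8797 UMIs against 7976, 7507, 6479 and 2438 UMIs in zero nuclei. Their mitochondrial shares were lower than those of zero nuclei in each library, with medians of 4.51, 7.65, 4.65 and 4.16% against 5.21, 8.06, 6.05 and 5.06%. Ttn and Ryr2 together made up 3.22, 3.22, 3.46 and 3.52% of the summed non-mitochondrial UMIs of stressed nuclei and 3.37, 3.33, 3.60 and 3.50% of those of zero nuclei.

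The label of cardiomyocytes was checked against 10 markers that the gate did not use, among them Myh6, Tnnt2 and Actn2. All 10 were detected in the stressed nuclei of every library. After matching for depth they summed to 23519, 25682, 27486 and 25480 CPM (counts per 1000000 UMIs, leaving out mitochondrially encoded genes and the 10 genes of the rule), against 1834 to 2291 CPM in kept barcodes where Ttn and Ryr2 gave under 0.5%. In paired zero nuclei these markers summed to 21126, 24711, 26756 and 23541.5 CPM, lower than in stressed nuclei in each library. The barcodes with Ttn and Ryr2 under 0.5%, which held little muscle RNA, serve below as a comparison. Free RNA in them cannot be told apart from RNA of other cell types' nuclei. Fibroblast markers summed to 1499, 1842, 2520 and 2154 CPM in stressed nuclei against 5900 to 7599 CPM, and endothelial markers to 781, 601, 420 and 769 CPM against 4425 to 5144 CPM. Macrophage markers summed to 224, 140, 172 and 319 CPM against 995 to 1566 CPM. Atrial markers, a list that includes Nppa, went the other way, at 740, 870, 1069 and 1730 CPM against 47.6 to 167 CPM, and stood at 877, 1016, 1283 and 1113 CPM in paired zero nuclei. Of the 8 atrial markers, Bmp10 and Sln had no UMI in the matched stressed nuclei of 3 libraries, and Sbk2 and Myl7 had none in the sedentary infarct library. All 8 were detected in the running library. Nppa gave 19.2, 25.6, 202 and 551 CPM of the atrial sums in stressed nuclei.

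Stressed nuclei made up a larger share of the gate in the infarct libraries. They numbered 179, 245, 253 and 202, or 20.3% (95% exact Clopper-Pearson interval 17.7 to 23.1), 33.6% (30.1 to 37.1), 68.0% (63.0 to 72.7) and 61.8% (56.3 to 67.1). The intervals cover counting error only, and with 1 library per group no difference was tested. Depth moved with this share: among nuclei with under 5000 UMIs it was 9.52, 17.5, 40.4 and 37.9%, and among those above 10000 UMIs it was 28.7, 46.3, 83.6 and 85.6%. With every nucleus thinned to 2000 UMIs, which left out 36, 43, 18 and 69 shallower nuclei, the shares were 5.44, 10.2, 42.9 and 40.3%. In barcodes with little Ttn and Ryr2, thinned in the same way, they were 0.0329, 0.0816, 0.940 and 1.19%. Those barcodes had median depths of 3189, 3397, 3750 and 2780 UMIs and unthinned shares of 0.218, 1.04, 7.30 and 6.65%. The infarct libraries therefore lay above the other libraries at each depth examined, and the running library lay above the sedentary library.

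**Figure D1:**
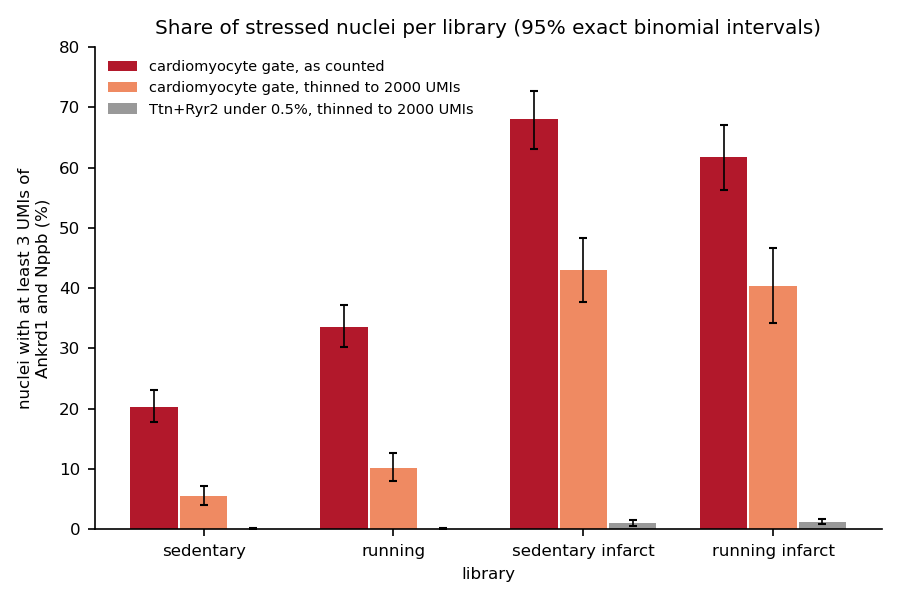
Percentage of nuclei with at least 3 UMIs of Ankrd1 and Nppb in each library, as counted in the cardiomyocyte gate, after thinning to 2000 UMIs, and in thinned barcodes with Ttn and Ryr2 under 0.5%. Bars start at 0 and whiskers are 95% exact binomial intervals; the infarct bars stand at 42.9 and 40.3% after thinning, against 5.44 and 10.2%, and the grey bars at no more than 1.19%.

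Just inside the threshold, 43, 47, 16 and 23 nuclei had exactly 3 UMIs, and just outside it 66, 66, 18 and 33 had exactly 2. The number of transcripts per stressed nucleus was higher after infarct, with medians of 6, 7, 21 and 13 UMIs and maxima of 69, 91, 294 and 125. At least 10 UMIs were found in 32.4, 35.5, 70.8 and 60.4% of stressed nuclei. Ankrd1 gave most of these UMIs, 1476, 2665, 7864 and 3908, against 227, 180, 789 and 520 of Nppb. The 10 richest nuclei of Nppb held 34.4, 38.3, 25.5 and 21.3% of its UMIs, against 23.8, 21.7, 17.5 and 21.0% for Ankrd1. Such a share rises where UMIs are few, so it cannot tell whether Nppb was more concentrated than Ankrd1.

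Stressed nuclei split by which of the defining genes they carried. Both were detected in 29.6, 31.4, 59.7 and 66.3%, Ankrd1 alone in 59.2, 66.1, 39.1 and 32.2%, and Nppb alone in 11.2, 2.45, 1.19 and 1.49%. The infarct libraries thus held mostly nuclei with both transcripts, and the libraries without infarct mostly nuclei with Ankrd1 alone. At an equal depth of 2000 UMIs, Nppb was detected in 7.14, 7.35, 32.9 and 46.9% of gated nuclei with at least 3 Ankrd1 UMIs, against 3.75, 3.80, 15.4 and 7.06% of those with none. In barcodes with little Ttn and Ryr2, Ankrd1 was at 21.0, 44.4, 135 and 149.5 CPM and Nppb at 5.99, 6.59, 21.7 and 24.2 CPM, so both were also higher there in the infarct libraries. Whether this was free RNA or RNA of those nuclei was not tested. The part of free RNA in the share was not tested beyond the thinned values above.

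To ask which other genes went with this state, stressed nuclei were paired with the zero nucleus of nearest depth in the same library, each used once and within a fixed ratio of depths. This gave 175, 232, 52 and 55 pairs, because zero nuclei were few after infarct. The pairs of the infarct libraries drew on the shallower stressed nuclei, with median depths of 6808 and 2740 UMIs against 6766 and 2544 in zero nuclei. The sedentary pairs had medians of 9615 and 9618 UMIs, while in the running library paired stressed nuclei stayed deeper, at 9478.5 against 7826.5 UMIs. Counts were summed per library and state and compared over the 4 libraries with edgeR's quasi-likelihood test, the library entering as a block. Of 9813 genes, 53 were higher (0.54%) and 49 lower (0.499%) in stressed nuclei at a Benjamini-Hochberg adjusted p under 0.05, 1.04% in all. The higher genes moved the same way in all 4 libraries in 45 of 53 cases and the lower genes in 29 of 49. Over paired stressed and zero nuclei summed, so that direction does not enter, 39 of the 49 lower genes (79.6%) had a higher level in the barcodes with little Ttn and Ryr2, as did 14 of the 53 higher genes (26.4%) and 66.2% of all genes tested. DESeq2 gave an adjusted p for 3915 genes and called 24 higher and 8 lower, all among those of edgeR. Without the library block, or with at most 5% mitochondrial UMIs, edgeR called none in either direction, with 405 and 144 genes at an unadjusted p under 0.05, against 815 in the comparison as given. Without the sedentary or the running library the calls dropped to 21 and 9 of 5919 genes tested, or 19 and 9 of 5975. Without the running infarct library they rose to 79 and 93 of 11472.

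Nppa, which encodes atrial natriuretic peptide and neighbours Nppb in the genome, was at 19.2, 25.6, 202 and 551 CPM in stressed nuclei. In the paired zero nuclei it was at 4.98, 6.03, 64.8 and 61.5 CPM. It was higher in all 4 libraries, with a log2 fold change of 2.20 (SE 0.23, n = 4 libraries, edgeR adjusted p = 3.17e-06), the largest among the named genes. Its UMIs were few and uneven. In the sedentary library 1 nucleus held 25 of its 39 UMIs in paired stressed nuclei, and without that nucleus the log2 ratio there was 0.47 in place of 1.95. In the other 3 libraries the ratio without the richest nucleus was 1.79, 1.32 and 2.82. Nppa also stood at 12.6, 13.5, 135 and 73.3 CPM in barcodes with little Ttn and Ryr2, above the zero nuclei of each library.

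Acta1, the skeletal muscle alpha-actin of the fetal heart, was at 32.5, 28.6, 137 and 152 CPM in stressed nuclei and at 10.5, 17.6, 54.0 and 66.7 CPM in zero nuclei. Its log2 fold change was 1.19 (SE 0.20, edgeR adjusted p = 0.0021), and it lost the call without the sedentary library (adjusted p = 0.0593). Tnfrsf12a, the receptor of the cytokine TWEAK, was at 16.7, 9.39, 29.6 and 60.7 CPM against 3.49, 2.51, 10.8 and 15.4 CPM. It was higher in each library, by a log2 fold change of 1.95 (SE 0.37, edgeR adjusted p = 0.00467), and lay under the count filter without the sedentary or the running library. Nppa, Acta1 and Tnfrsf12a were the members called of 14 tested in the list of stress and fetal genes, against 0.54% of all genes called higher. The list's median log2 fold change was 0.32 against -0.01 over all genes. Of the other 11, Myh7, the slow myosin heavy chain, had a log2 fold change of 0.22 (SE 0.10, edgeR adjusted p = 0.532). Ccn2, a matricellular growth factor gene, had 0.61 (SE 0.24, edgeR adjusted p = 0.371) and was higher in 3 libraries. The gene lists were chosen with earlier results of these data known, so the counts within them are a description.

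The Z-disc anchors titin and actin at the sarcomere boundary. Of 32 genes tested in its list, the longest one, 7 rose and 0 fell, against 0.54 and 0.499% of all genes. The median log2 fold change was 0.20, against 0.24 over the 10 cardiomyocyte markers, of which 9 were positive and 1 was called. This list was also chosen with earlier results of these data known, so its count is a description. Ankrd23, a titin-binding relative of Ankrd1, was at 182, 53.4, 105 and 334 CPM in stressed nuclei. In zero nuclei it was at 92.6, 31.7, 24.3 and 41.0 CPM. It was therefore raised in each library, with a log2 fold change of 1.22 (SE 0.18, edgeR adjusted p = 0.000634), and called with any of the 4 libraries left out.

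Xirp2, an actin-binding protein of the Z-disc and intercalated disc, was at 564, 461, 1486 and 1300 CPM (1299.8 in the running infarct library) against 449, 425, 381 and 615 CPM. Its log2 fold change was 0.76 (SE 0.16, edgeR adjusted p = 0.0165), but the ratio within the sedentary and running libraries was only 0.33 and 0.12. Without the sedentary infarct library the adjusted p was 0.124. Synpo2l, an actin-associated Z-disc protein, changed by 0.81 (SE 0.18), Pdlim3, a PDZ and LIM protein bound to alpha-actinin, by 0.64 (SE 0.13), and Nrap, an anchor of thin filaments, by 0.61 (SE 0.10). Flnc, the muscle filamin, changed by 0.59 (SE 0.13) and Hspb7, a small heat shock protein of the sarcomere, by 0.57 (SE 0.13), all on the log2 scale and past the edgeR threshold. Pdlim3, at 152 CPM over all stressed nuclei, was below the 165 CPM of barcodes with little Ttn and Ryr2. Synpo2l, Pdlim3 and Hspb7 lost the call without the sedentary library, at edgeR adjusted p of 0.08, 0.0532 and 0.107, and without the running library, at 0.23, 0.33 and 0.519. Among the 25 not called, Des, the muscle intermediate filament, had a log2 fold change of 0.38 (edgeR adjusted p = 0.0793) and Csrp3, a muscle LIM protein, had 0.33 (edgeR adjusted p = 0.123).

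Among 25 costamere and adhesion genes only Enah was called, against a background of 1.04% for either direction. Enah, a regulator of actin filament growth, was at 496, 413, 641 and 1598 CPM in stressed nuclei and at 357, 326, 324 and 503 CPM in zero nuclei. Its log2 fold change was 0.76 (SE 0.13, edgeR adjusted p = 0.00243), and the call held with any library left out. Of 16 sarcomere genes, Mybpc3, the cardiac myosin-binding protein, rose by 0.49 (SE 0.10) and Tnnc1, the calcium-binding troponin subunit, by 0.41 (SE 0.09) on the log2 scale, against 0.54% of all genes called higher. Both lost the call without the sedentary or the running library, with edgeR adjusted p between 0.0601 and 0.262, and Tnnc1 also without the sedentary infarct library (0.075). The median of this list was 0.18, against 0.24 over the 10 cardiomyocyte markers. Myh6, the main adult myosin heavy chain, had a log2 fold change of 0.07 (SE 0.09, edgeR adjusted p = 0.935) and was higher in 2 of 4 libraries.

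Tlr4, Kctd16 and Clic5 were among the 12 leading higher genes and belong to none of the lists. Tlr4, the receptor for bacterial lipopolysaccharide and for danger signals, was at 281, 323, 442 and 663 CPM in stressed nuclei and at 136, 188, 227 and 103 CPM in zero nuclei. It was higher in each library, by a log2 fold change of 1.11 (SE 0.14, edgeR adjusted p = 8.8e-05), and 351 of the 514 paired stressed nuclei carried it against 268 of the zero nuclei. Its level in barcodes with little Ttn and Ryr2 was 81.0 to 103 CPM, below the stressed nuclei of each library. Kctd16, an auxiliary subunit of GABA-B receptors, was at 78.7, 97.3, 140 and 364 CPM against 20.9, 58.8, 35.1 and 56.4 CPM, a log2 fold change of 1.48 (SE 0.20, edgeR adjusted p = 8.8e-05). Clic5, a chloride intracellular channel protein, was at 288, 250.6, 372 and 678 CPM against 199, 176, 149 and 210 CPM, a log2 fold change of 0.81 (SE 0.13, edgeR adjusted p = 0.0013). Tlr4, Kctd16 and Clic5 kept their calls with any library left out.

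Slc24a2 and Masp1 rested on few nuclei. Slc24a2, a potassium-dependent sodium-calcium exchanger, had 208 UMIs in 57 paired stressed nuclei and 53 UMIs in 19 zero nuclei, a log2 fold change of 1.87 (SE 0.25, edgeR adjusted p = 8.8e-05). Masp1, a protease of the lectin pathway of complement, had 110 UMIs in 74 stressed and 31 in 26 zero nuclei, with a log2 fold change of 1.71 (SE 0.38, edgeR adjusted p = 0.0198). Both lay under the count filter when the sedentary or the running library was left out. Others were carried by more nuclei, Hectd2 by 128, Tox3 by 146, Jun by 129 and Ppm1e by 213 of the 514 paired stressed nuclei. Hectd2, a ubiquitin ligase gene, changed by 0.91 (SE 0.20), Tox3, an HMG-box gene, by 0.84 (SE 0.17), and Ppm1e, a protein phosphatase gene, by 0.79 (SE 0.17) on the log2 scale. The immediate early gene Jun, a subunit of the AP-1 transcription factor, changed by 0.84 (SE 0.21), with a level of 34.5 CPM over all stressed nuclei that was below the 42.4 CPM of barcodes with little Ttn and Ryr2. Hectd2 and Jun lost the call when either library without infarct or the sedentary infarct library was left out, Tox3 when either library without infarct was left out, and Ppm1e without the sedentary infarct library. Fgf12, a sodium channel modulator, passed the test with a log2 fold change of 2.67 but fell outside the rule for named genes, since the sedentary library went the other way. A single running nucleus held 164 of its 271 UMIs there, and a single running infarct nucleus held all 42.

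**Figure D2:**
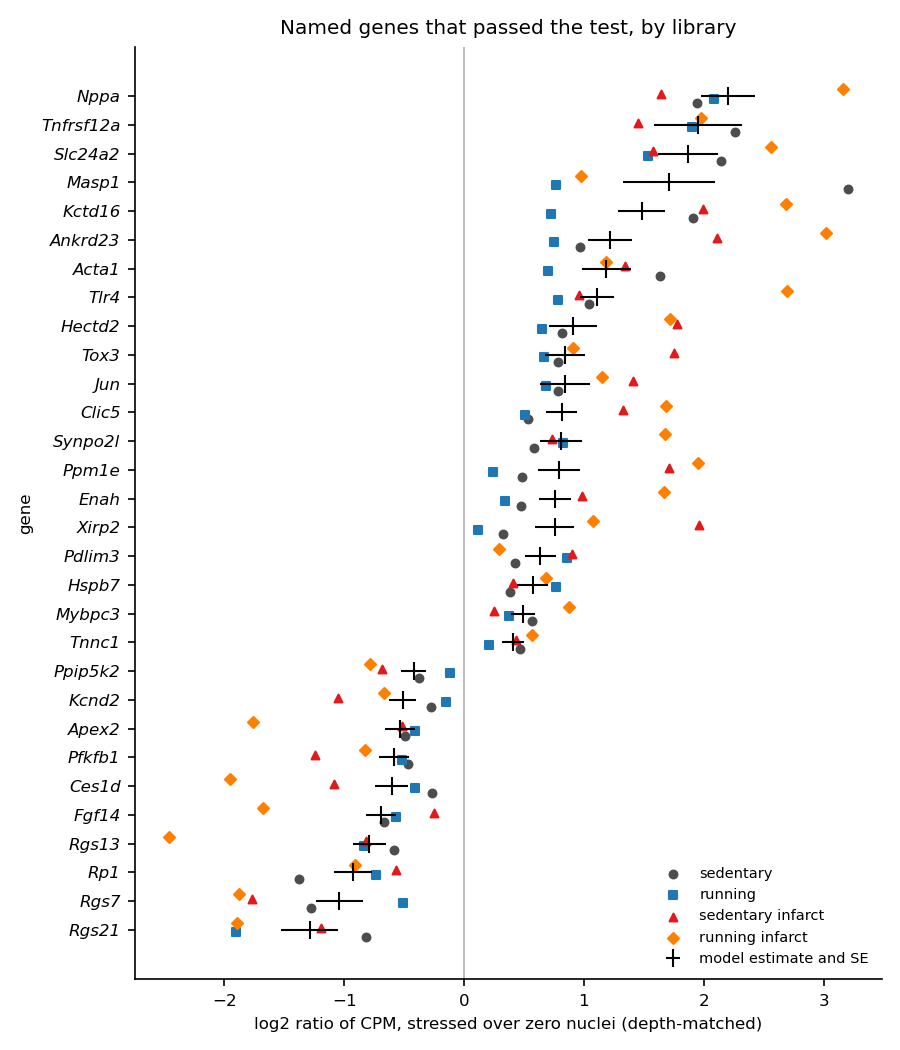
Log2 ratio of CPM between paired stressed and zero nuclei for the named genes that passed the edgeR test, 1 point per library, with the model estimate and its SE in black. Masp1 has no point for the sedentary infarct library, where zero nuclei had no UMI; Nppa has the highest estimate at 2.20 and Rgs21 the lowest at -1.29.

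Metabolic, calcium and regulatory lists had no member past the test. None of 25 genes of fatty acid uptake and oxidation was called in either direction, with 3 higher and 1 lower at an unadjusted p under 0.05, and their median log2 fold change was -0.01. Cd36, the fatty acid translocase, had -0.06 (SE 0.10), Ppargc1a, a coactivator of mitochondrial biogenesis, -0.02 (SE 0.13), and Pdk4, the kinase that holds back pyruvate oxidation, 0.10 (SE 0.11). Among 20 nuclear-encoded genes of oxidative phosphorylation 0 were called with a median of 0.22 and 8 at an unadjusted p under 0.05, all higher. The 10 cardiomyocyte markers had a median of 0.24, with 6 higher at an unadjusted p under 0.05. Among 16 glycolysis genes 0 were called, the median was 0.15, and 2 were higher at an unadjusted p under 0.05. The 14 calcium handling genes held 0 calls, with 5 higher at an unadjusted p under 0.05. Atp2a2, the calcium pump of the sarcoplasmic reticulum, was at 3308, 3220, 2835 and 2600 CPM (2599.5 in the running infarct library) in stressed nuclei and at 3304, 3593, 3827 and 2759 CPM in zero nuclei, a log2 fold change of -0.16 (SE 0.09, edgeR adjusted p = 0.722). The lists of YAP and TEAD targets, cardiac transcription regulators, hypertrophic signalling and clock genes held 0 calls among 16, 26, 29 and 15 members, with 5, 1, 5 and 4 at an unadjusted p under 0.05. DESeq2, which gave an adjusted p for 3915 genes only, called no gene beyond those edgeR called, so it added no call to these lists.

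**Figure D3:**
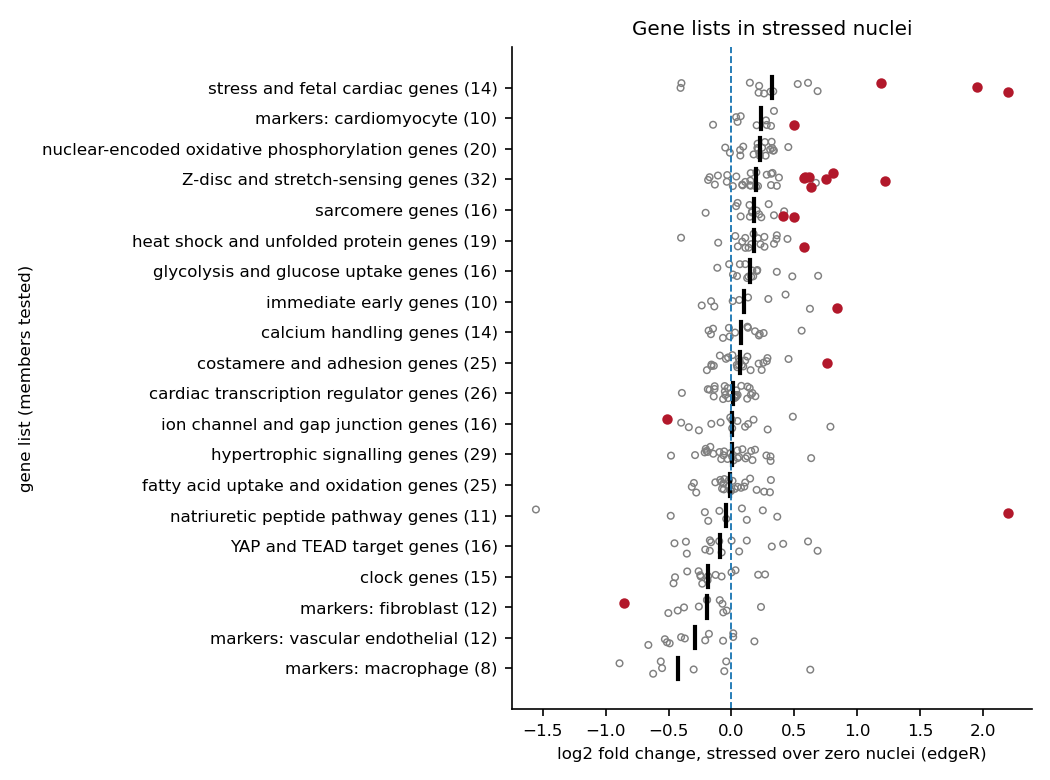
Log2 fold change between stressed and zero nuclei for the tested members of each list with at least 8 members, 1 point per gene. Filled points passed the edgeR test, black bars are list medians and the dashed line is the median of all 9813 genes at -0.01; the Z-disc list holds 7 filled points and the fatty acid list none.

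In the natriuretic peptide pathway only Nppa was called of 11 tested genes, against 1.04% of all genes in either direction, and the median log2 fold change was -0.04. Corin, the protease that activates the atrial peptide, had -0.21 (SE 0.09, edgeR adjusted p = 0.461) and was lower in all 4 libraries. Npr1, Npr2 and Npr3, the receptors for natriuretic peptides, had -0.10, 0.08 and -0.18, none past the test. Over the 11 genes the log2 fold changes ran from -1.55 to 2.20, with 2 higher and 3 lower at an unadjusted p under 0.05.

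The 10 named genes on the lower side were required by the naming rule to fall in each of the 4 libraries and to lie at or above the level of barcodes with little Ttn and Ryr2. Kcnd2, the Kv4.2 pore subunit of the fast transient outward potassium current, was at 2291, 3061, 1814 and 2706 CPM in stressed nuclei. In zero nuclei it was at 2768, 3403, 3762 and 4293 CPM. Its log2 fold change was -0.51 (SE 0.11, edgeR adjusted p = 0.0185), it was the member called of 16 ion channel and gap junction genes (0.499% of all genes were called lower), and without the sedentary infarct library its adjusted p was 0.262. Fgf14, an intracellular modulator of sodium channels, was at 703, 718, 1074 and 460 CPM against 1121, 1062, 1280 and 1472 CPM. It fell by 0.70 on the log2 scale (SE 0.13, edgeR adjusted p = 0.0034) and kept the call with any library left out.

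Ces1d, a carboxylesterase that hydrolyses lipid esters, was at 390, 411, 253 and 106 CPM in stressed nuclei and at 468, 547, 537 and 410 CPM in zero nuclei. It fell by 0.60 on the log2 scale (SE 0.14, edgeR adjusted p = 0.0243), with adjusted p of 0.16 without the sedentary infarct library. Pfkfb1, an enzyme that sets the level of the glycolytic activator fructose 2,6-bisphosphate, fell by 0.58 (SE 0.13), and Apex2, a DNA repair endonuclease, by 0.54 (SE 0.13). Ppip5k2, an inositol pyrophosphate kinase, fell by 0.42 (SE 0.11) and Rp1, a microtubule-associated protein known from photoreceptors, by 0.93 (SE 0.16), all past the edgeR threshold. Apex2, Pfkfb1 and Ppip5k2 lost the call in 3 of the 4 fits without 1 library, and Rp1 without the sedentary library, at an edgeR adjusted p of 0.159. In the RefSeq order of protein-coding genes Apex2 and Pfkfb1 stand on either side of Alas2, which Apex2 overlaps and which was lower in all 4 libraries without passing the test (log2 fold change -0.35, edgeR adjusted p = 0.585). Reads of overlapping genes can be assigned to either, so Apex2 and Alas2 cannot be taken as independent, while Pfkfb1 neighbours Alas2 without overlap. Apex2 also overlaps Tmem29, its neighbour on the other side. Tnfrsf12a, Masp1, Ppm1e, Fgf14 and Ppip5k2 likewise each overlap a protein-coding neighbour in the same table, taken without regard to strand. The same holds for Mylk4, Atp5a1, Cacna1c and Myh6.

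Rgs13, Rgs21 and Rgs7, which were also among the named lower genes, encode regulators of G-protein signalling, proteins that speed the shut-off of G-protein-coupled receptors. No list of this family was set up, so no count of it is given. Rgs13 was at 158, 102, 99.6 and 35.4 CPM in stressed nuclei and at 237, 181, 176 and 195 CPM in zero nuclei. It fell by 0.79 on the log2 scale (SE 0.14, edgeR adjusted p = 0.0021) and kept the call with any library left out. Rgs21 fell by 1.29 (SE 0.24, edgeR adjusted p = 0.00446) and Rgs7 by 1.04 (SE 0.20, edgeR adjusted p = 0.00458) on the log2 scale. Rgs21 lost the call without the running library and Rgs7 without the sedentary library, at adjusted p of 0.253 and 0.0715. Rgs2, Rgs13, Rgs1 and Rgs21 follow each other in the RefSeq gene order. Their neighbours Rgs2 and Rgs1 had log2 fold changes of -0.80 and -0.76 that did not pass the test (edgeR adjusted p = 0.131 and 0.522). Elsewhere in the genome Rgs3, Rgs5, Rgs6 and Rgs12 had -0.34, 0.35, 0.16 and 0.46, none past the test.

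Among markers of other non-muscle cells, Abca8a, a lipid transporter of fibroblasts, passed the test (log2 fold change -0.85, SE 0.12, edgeR adjusted p = 0.000298). It was 1 of 12 fibroblast markers tested, against 0.499% of all genes called lower, and 11 of the 12 had a negative log2 fold change, with a median of -0.19. The median was -0.29 over 12 endothelial and -0.43 over 8 macrophage markers, with 0 calls. At an unadjusted p under 0.05, 5 endothelial markers were lower, and 1 macrophage marker was higher and 2 lower. The summed fibroblast markers were at 1957, 2096, 2493 and 2452 CPM in zero nuclei, above the stressed nuclei in 3 of 4 libraries. Endothelial markers summed to 954, 797, 521 and 610 CPM in zero nuclei, below the stressed nuclei in the running infarct library, and macrophage markers to 237, 275, 138 and 328 CPM, below them in the sedentary infarct library. Endocardial markers went the other way in all 4 libraries, at 1099, 1149, 915 and 1138 CPM in stressed against 1047, 1062, 878 and 974 CPM in zero nuclei, although the median log2 fold change of the 5 genes was -0.0513 and 0 were called. Y-linked transcripts were examined because the pools held both sexes. Before matching, when stressed nuclei were deeper, nuclei carrying 2 or more UMIs from the 4 genes on the Y chromosome made up 52.0, 61.6, 29.6 and 25.3% of stressed and 40.2, 45.5, 28.6 and 6.78% of zero nuclei. After matching for depth these genes summed to 353, 456, 183 and 70.8 CPM in stressed against 336, 371, 248 and 123 CPM in zero nuclei, higher in 2 libraries and lower in 2, and 0 of the 4 genes was called. Pairs matched within the same Y call, an alternative added after seeing the data, gave 76 higher and 104 lower genes, of which 49 and 44 were among the 53 and 49. The part of other cell types' RNA in the lower genes was not tested.

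The same genes were graded within the stressed nuclei. When stressed nuclei were divided into those with 3 to 9 and those with at least 10 UMIs of Ankrd1 and Nppb, the 12 leading higher genes were at a higher level in the richer nuclei in 45 of 48 combinations of gene and library. The 10 lower genes were at a lower level there in 38 of 40. Among 13 named genes that did not pass the test the richer nuclei were higher in 21 and lower in 31 of 52. Many of these nuclei also entered the paired comparison, so the counts are a description. Median depth rose along with the classes, from 10127, 9882, 10734 and 7065 UMIs at 3 to 9 to 10280 (10279.5), 10655, 12124 and 9989 UMIs at 10 or more.

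Tlr4 rose from 133 CPM in sedentary zero nuclei over 181 and 241 to 272 CPM in the richest class, and from 101 over 162 and 298 to 533 CPM in the running infarct library. Ces1d ran the other way, from 514 over 433 and 416 to 267 CPM in the sedentary library and from 534 over 480 and 395 to 252 CPM in the sedentary infarct library. Fgf14 fell between the zero and the richest class from 1154 to 661, 1056 to 523, 1263 to 738 and 1445 to 703 CPM. Kcnd2 fell likewise, from 2945 to 2024 (2024.5), 3389 to 2787, 3793 to 1899 and 4214 to 2254 CPM. Xirp2 differed between library types. In the infarct libraries it stood at 1118 and 1613 CPM in the richest class against 380 (380.1) and 861 CPM in zero nuclei, while the libraries without infarct held 464 and 498 CPM against 462 and 435 CPM. Myh7 showed no common order, with 1271 to 1058 CPM in the sedentary and 1350 to 1596 CPM in the sedentary infarct library.

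**Figure D4:**
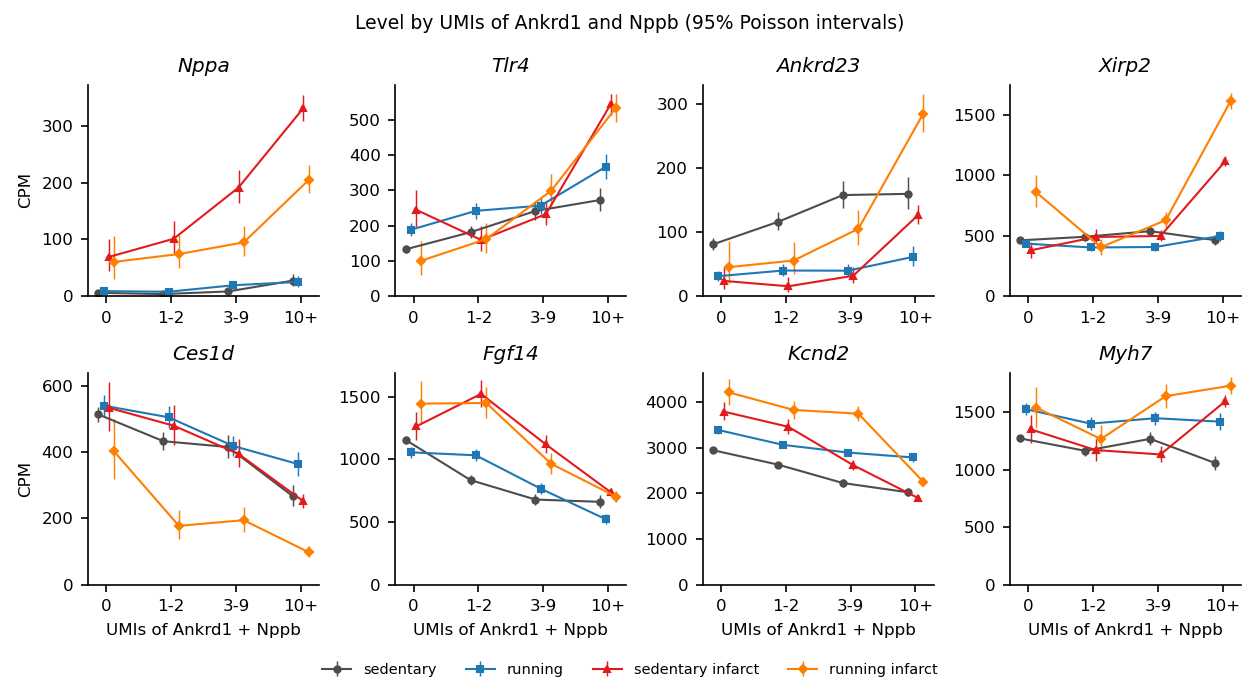
CPM of 8 genes in gated nuclei with 0, 1 to 2, 3 to 9 and at least 10 UMIs of Ankrd1 and Nppb, 1 line per library with 95% Poisson intervals, on axes that start at 0. Fgf14 and Kcnd2 are lowest in the richest class of all 4 libraries, Tlr4 is highest there, and Xirp2 is high there in the infarct libraries alone, at 1118 and 1613 CPM.

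Nuclei with Nppb were also set against those with Ankrd1 alone. Nppb-positive stressed nuclei had the higher level in 39 of 48 combinations for the higher genes and the lower level in 38 of 40 for the lower genes. The 13 named genes that did not pass the test were also mostly lower there, in 38 of 52, and higher in 14. Acta1 was at 46.7, 37.1, 109 and 82.3 CPM with Nppb and at 11.2, 17.6, 57.6 and 57.9 CPM with Ankrd1 alone. Nppa was at 26.2, 30.2, 342 and 209 CPM with Nppb and at 7.18, 15.8, 175 and 57.9 CPM without. Slc24a2 went the other way in 3 of 4 libraries, with 32.8, 21.6, 28.8 and 80.2 CPM with Nppb and 47.8, 46.2, 17.8 and 93.0 CPM without. Nuclei with Nppb were also deeper, at medians of 11120, 11543, 14149 and 9489 UMIs against 9830 (9830.5), 9447, 9822 and 7434 UMIs.

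Whether the difference between stressed and zero nuclei itself changed after infarct was tested as an interaction, with the 2 infarct libraries against the 2 others. Of 9813 genes, 4 (0.0408%) passed edgeR's quasi-likelihood test at an adjusted p under 0.05, with 721 at an unadjusted p under 0.05. All 4 rose more in the infarct libraries. Xirp2 had log2 ratios of 0.33, 0.12, 1.96 and 1.08 and an interaction of 1.32 (SE 0.20, adjusted p = 0.00174). Uck2, a uridine-cytidine kinase of pyrimidine salvage, had 0.03, 0.11, 2.23 and 2.83 and an interaction of 2.40 (SE 0.45, adjusted p = 0.0339).

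Ppm1e had log2 ratios of 0.49, 0.24, 1.71 and 1.95 (interaction 1.43, SE 0.28, edgeR adjusted p = 0.0377). Slc38a2, an amino acid transporter induced by osmotic and nutrient stress, had 0.57, 0.09, 1.29 and 1.51 (interaction 1.01, SE 0.20, edgeR adjusted p = 0.0447). Few nuclei carried some of these differences. A single sedentary infarct nucleus held 203 of the 552 Xirp2 UMIs, and the ratio without it was 1.30. A single running infarct nucleus held 16 of 36 Uck2 UMIs, and the ratio without it was 1.98. DESeq2 called 0 of these interactions, with 120 genes at an unadjusted p under 0.05, and without depth matching edgeR called 11, which included the 4. The infarct and other libraries also differed in depth and in Y-linked transcripts, which cannot be told apart from infarct here.

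Stressed nuclei were then compared between libraries, over all 879 of them and without a test. In the sedentary infarct library against the sedentary library, 307 of 7566 genes (4.06%) exceeded 1.5-fold upward and 599 (7.92%) downward, at a median log2 ratio of -0.02 over all of them. Nppa rose from 16.6 to 294 CPM, 17.7-fold (95% interval for counting error 12.96 to 24.8), while Nppa in barcodes with little Ttn and Ryr2 went from 12.6 to 135 CPM. Rrad, a small GTPase that restrains calcium channels, was 4.92-fold higher (3.67 to 6.73), Ppm1e 2.92-fold (2.53 to 3.37) and the clock repressor Ciart 8.10-fold (4.37 to 16.7). Ccn2 was 6.71-fold higher (4.46 to 10.5) and Acta1 3.28-fold (2.52 to 4.30). In all, 4 of 13 measured stress and fetal genes were past 1.5-fold higher and 0 lower. The metabolic regulators Irs2, the insulin receptor substrate, and Pdk4 were lower, 6.42-fold (4.85 to 8.63) and 3.57-fold (3.04 to 4.20), and so were the nuclear receptor Nr4a3, 5.18-fold (3.21 to 8.69), and the chromatin protein Hmgb1, 2.57-fold (2.37 to 2.79).

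Chaperone genes were mostly lower in that comparison, with 11 of 18 heat shock and unfolded protein genes past 1.5-fold lower and 2 higher, at a median log2 ratio of -1.08. Hsph1, a large co-chaperone, was 5.68-fold lower (4.36 to 7.47), Dnaja1, a J-domain co-chaperone, 4.33-fold (3.63 to 5.19), and Hspb7 2.08-fold higher (1.77 to 2.45). The sedentary library stood apart from the others in Hsph1. Hsph1 was at 121 CPM there, and at 21.3, 21.4 and 25.04 CPM in the running, sedentary infarct and running infarct libraries. The running against sedentary comparison shares that library, and 8 of 19 chaperone genes were lower in it. The running infarct against running comparison does not use the sedentary library. There 6 of 17 chaperone genes were lower and 0 higher, at a median log2 ratio of -0.52 against -0.03 over all genes.

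In the running infarct library against the running library, 324 of 6911 genes (4.69%) exceeded 1.5-fold upward and 493 (7.13%) downward, at a median log2 ratio of -0.03. Nppa was 7.92-fold higher (6.02 to 10.6), Tnfrsf12a 5.24-fold (3.29 to 8.62), Ankrd23 4.78-fold (3.94 to 5.83) and Rasl11b, a Ras-like GTPase gene, 4.97-fold (3.23 to 7.88). Of 14 stress and fetal genes 8 were higher and 0 lower. The Z-disc list had 6 of 31 higher and 0 lower, with Xirp2 2.97-fold (2.78 to 3.18) and Flnc 2.39-fold (2.05 to 2.80) higher. Of the 2521 Xirp2 UMIs in the running infarct library, 1 nucleus held 302. Genes of fatty acid use were lower as a group here, 12 of 24 past 1.5-fold and 0 higher, with a median log2 ratio of -0.64. Pdk4 was 11.5-fold lower (8.83 to 15.2), the mitochondrial carrier Ucp3 5.72-fold (3.50 to 9.90), Ppargc1a 1.82-fold (1.71 to 1.93) and Hadhb, a subunit of the trifunctional oxidation enzyme, 1.78-fold (1.56 to 2.04). The immediate early receptor Nr4a1 was 10.2-fold lower (7.98 to 13.4) and the kinase Sik1 4.20-fold (2.98 to 6.09).

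Pdk4 was lower after infarct in zero nuclei as well. There it was at 267, 363, 85.1 and 45.3 CPM, and in stressed nuclei at 226, 353, 63.5 and 30.8 CPM. In the sedentary infarct comparison 4 of 25 fatty acid genes were lower, with a median log2 ratio of -0.19.

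Running against sedentary stressed nuclei without infarct gave fewer differences, 162 of 7352 genes higher (2.2%) and 278 lower (3.78%). Nr4a1 was 9.19-fold higher (7.44 to 11.5), the muscle myosin kinase gene Mylk4 2.74-fold (2.50 to 3.01) and Rrad 3.07-fold (2.25 to 4.26). Lower were Ankrd23, 3.29-fold (2.70 to 4.03), the oxygen-sensing hydroxylase Egln3, 3.29-fold (2.37 to 4.64), the magnesium transporter Slc41a3, 3.48-fold (2.36 to 5.22), and the small GTPase Rasef, 2.74-fold (2.00 to 3.81). Of 11 stress and fetal genes 0 were higher and 1 lower. Fgf12 was 29.4-fold higher, but 1 nucleus held 164 of its 273 UMIs. Rasef also rested on few nuclei, with 135 UMIs in 18 sedentary and 57 UMIs in 24 running stressed nuclei.

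After infarct, running against sedentary stressed nuclei differed past 1.5-fold in 243 of 7157 genes upward (3.4%) and 270 downward (3.77%). Ankrd23 was 2.28-fold higher (1.97 to 2.63), Slc24a2 3.26-fold (2.49 to 4.29) and Scube2, a secreted and membrane-bound signalling protein, 2.39-fold (1.78 to 3.23). The Slc24a2 ratio rested on few nuclei, with 160 UMIs in 27 running infarct and 84 UMIs in 27 sedentary infarct stressed nuclei. Nppa was at 171 against 294 CPM over all stressed nuclei, but at 551 against 202 CPM in the shallower paired ones, so its direction turned with the nuclei used. Its 10 richest nuclei held 53.4 and 50.2% of its UMIs in the running infarct and sedentary infarct libraries. Ces1d was 2.28-fold lower (1.98 to 2.63), Dgat2, which makes triglycerides, 2.06-fold (1.67 to 2.57), Tesc, a calcium-binding regulator of calcineurin signalling, 2.31-fold (1.67 to 3.27) and Ciart 3.29-fold (2.05 to 5.51). Fgf12 was 10.5-fold higher, with 1 nucleus holding 73 of its 239 UMIs. Clock genes differed between the libraries in opposed ways. Arntl, the clock activator, was at 45.3, 11.9, 11.9 and 34.9 CPM and the clock output gene Dbp at 21.0, 55.1, 73.2 and 28.7 CPM, so the sedentary and running infarct libraries were alike in this order and unlike the other pair.

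Transcripts of other cell types moved between libraries as well. In stressed nuclei the fibroblast genes Postn, a scar matrix protein, and Col1a1, a collagen, were 6.39-fold and 5.59-fold higher in the sedentary infarct comparison, and 6.51-fold and 5.89-fold higher in the running infarct comparison. Not all fibroblast markers rose: 5 of 12 measured were higher and 3 lower in the first comparison, and 6 of 11 higher and 3 lower in the second. Of 12 endothelial markers 11 were lower in the first and 2 in the second. All 4 Y-linked genes were lower in both. The part of these shifts in the ratios was not tested. The comparisons share libraries in pairs, so their values are given side by side and not correlated.

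**Figure D5:**
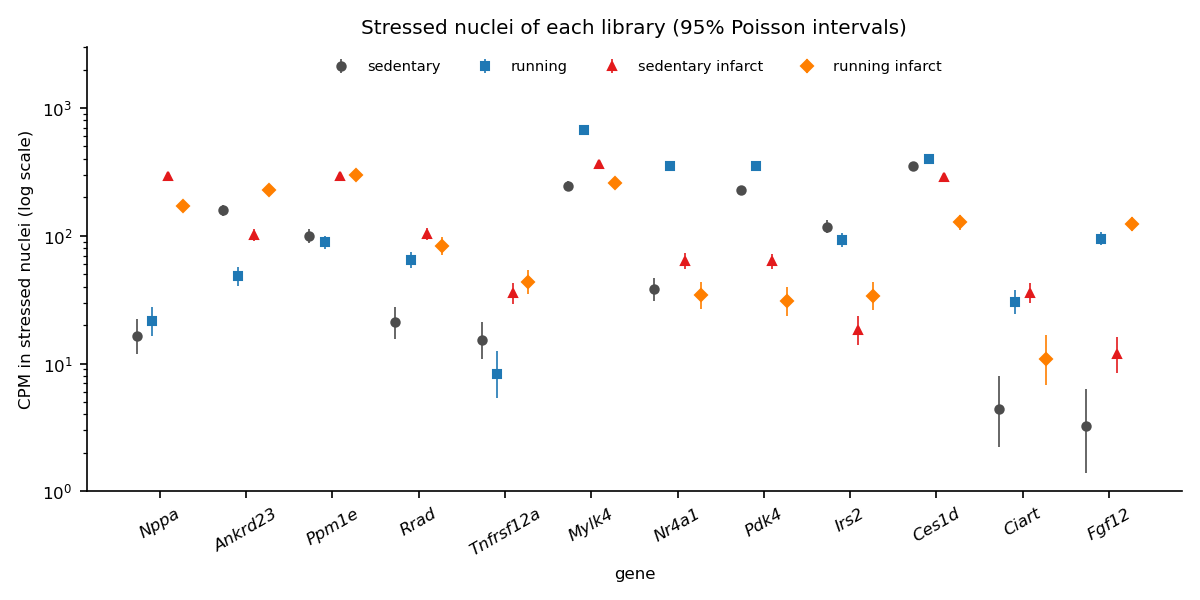
CPM of 12 genes in the stressed nuclei of each library on a log scale, with 95% Poisson intervals, 1 library per group. Nppa and Ppm1e are higher in the infarct libraries, Pdk4 and Irs2 lower, and Nr4a1 stands out in the running library at 353 CPM; Fgf12 rests on few nuclei.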

How the data were processed

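RNA of sorted nuclei was measured in 4 libraries with the 10x Genomics 3' kit, version 3.1, per the labels. The deposited files hold raw UMI counts per gene and barcode for 25906 genes. The authors made these counts with Cell Ranger 7.1 on build GRCm39, per the submitters' processing notes, and no cell annotation was used. Nuclei were gated and paired by depth as described, excluding the 10 rule genes and 37 mitochondrially encoded genes from all tests and denominators. Sums per library and state were tested with edgeR 4.0.16 (quasi-likelihood, TMM, filterByExpr, library block, Benjamini-Hochberg) in R 4.3.3, after a check on simulated data. DESeq2 1.42.0 was an alternative. Because the libraries serve as replicates and enter as a block, p-values rest on how the stressed-minus-zero difference varied over 4 libraries of differing treatment. Shares carry Clopper-Pearson and levels Poisson intervals at 95%, which cover counting error only. Scrublet's automatic threshold in scanpy 1.11.5 called 0 doublets, so nuclei were kept, and the highest scores were left out as an alternative, at 0.8% per 1000 barcodes.

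Named genes were the 12 most raised and up to 12 most lowered among called genes with 1 direction in every library, at least 100 UMIs and a level at least that of barcodes with Ttn and Ryr2 under 0.5%. Called members of the 28 gene lists, or otherwise the member with most UMIs, 8 fixed genes and, between libraries, the 4 genes up and down with the interval farthest from even were added. A gene entered between libraries with at least 100 UMIs. Members, lists and rules were chosen with earlier results of these data known. Genes of lists named beyond this rule (Nrap, Flnc, Ccn2, Des, Csrp3, Corin, the Npr receptors, neighbours of named genes, further Rgs genes, chaperones, Arntl, Dbp, Postn, Col1a1, Abca8a, Fgf12) and the interaction genes Uck2 and Slc38a2 were chosen after their values were seen.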

Additional observations from a re-analysis of the deposited data

Results flagged for a closer look

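For 4 genes the difference between stressed and zero nuclei was itself larger in the infarct libraries than in the others, by an interaction term in edgeR over the 4 libraries. On the log2 scale the excess was 1.32 for Xirp2, 2.40 for Uck2, 1.43 for Ppm1e and 1.01 for Slc38a2. In each case the ratios of both infarct libraries lay above those of both other libraries. The genes were picked by this same term, so that order adds nothing to the test. DESeq2 called 0 of these interactions. Without the richest nucleus of each library the log2 ratios of Xirp2 were 0.27, 0.09, 1.30 and 0.75, those of Uck2 -0.03, 0.06, 2.05 and 1.98, those of Ppm1e 0.40, 0.15, 1.14 and 1.68, and those of Slc38a2 0.52, 0.04, 1.18 and 1.26, in the order sedentary, running, sedentary infarct and running infarct.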

How the results depend on the processing

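In place of 53 higher and 49 lower of 9813 genes, DESeq2 gave 24 and 8 of 3915 with an adjusted p. Thinning to 2000 UMIs gave 27 and 22 of 6204 tested, and Nppb alone 34 and 27 of 8538. Ttn and Ryr2 at 3% or more gave 18 and 8 of 7811, and leaving out the highest doublet scores 29 and 18 of 9081. No depth matching gave 155 and 123 of 11836, of which 41 and 14 were shared. Without a filter 93 of 19156 were lower, with at least 5 UMIs 28 of 8625, and with pairs matched within the same Y call (added after seeing the data) 104 of 9638. Without the replicate block, and with at most 5% mitochondrial UMIs, 0 and 0 passed edgeR, at 405 and 144 unadjusted; the latter could not use the running and sedentary infarct libraries, with 18 and 17 pairs. Leaving out 1 library gave 19 to 79 higher and 9 to 93 lower: 21 and 9 without sedentary, 19 and 9 without running, 40 and 39 without sedentary infarct, 79 and 93 without running infarct. The genes tested numbered 5919, 5975, 11586 and 11472 in that order. In all 4 of these fits 11 higher and 3 lower genes were called. No paired analysis over replicate numbers was possible because each group has 1 library.

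Shares of stressed nuclei were 5.44, 10.2, 42.9 and 40.3% after thinning, 12.5, 23.8, 59.9 and 49.2% at 5 or more UMIs, 45.3, 62.1, 84.9 and 82.0% at 1 or more, and 23.4, 43.4, 77.8 and 71.0% with at most 5% mitochondrial UMIs, the infarct libraries highest each time. Between libraries, the mean of per-nucleus CPM gave 518 (sedentary infarct), 540 (running infarct) and 368 (running) higher genes and, for running infarct against sedentary infarct, 430 higher and 503 lower. At most 5% mitochondrial UMIs gave 519 higher and 292 lower of 5721 genes, and 549 and 280 of 3874. In the last comparison it gave 151 higher of 6109. Thinning gave 62 and 100, 91 and 113, 37 and 62, and 46 and 61. It left 1664, 1608, 1615 and 1651 genes measured, against 7566, 6911, 7352 and 7157 as reported and with the per-nucleus mean. The smaller counts after thinning therefore come from fewer genes and cannot be set directly against the reported counts. Without the highest doublet scores 432 of 6544 genes were lower in running. The interaction held 11 genes without depth matching and 0 by DESeq2.

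Reversals touched only genes that had not passed the test. Without depth matching the log2 fold change was -0.0372 for Myh7, -0.13 for Atp5a1, -0.0143 for Hk2, -0.23 for Pdk4, -0.15 for Myh6, -0.0889 for Esrrg, -0.0944 for Cacna1c and -0.0875 for Rcan2. With at most 5% mitochondrial UMIs it was -0.0089 for Myh7, -0.0521 for Hk2, -0.13 for Myh6, -0.14 for Esrrg, 0.0111 for Cd36 and 0.0438 for Asap1. With Ttn and Ryr2 at 3% it was -0.0869 for Pdk4, -0.0402 for Myh6, -0.0567 for Cacna1c and -0.0272 for Rcan2. It was -0.00308 for Esrrg thinned, -0.0411 for Myh6 at 5 UMIs, -0.48 for Pdk4 with Nppb alone, 0.0416 for Cd36 matched on Y calls and -0.0582 for Myh6 matched on mitochondrial share (added after seeing the data). Leaving out 1 library gave -0.0121 (without sedentary) to 0.105 for Cacna1c, -0.0487 (without sedentary) to 0.0616 for Rcan2, -0.19 to 0.14 (without running infarct) for Ppargc1a and -0.12 to 0.0486 (without running infarct) for Cd36. The cause was not tested. Depth limits the infarct side most: the paired running infarct sums held 197727 and 194975 UMIs.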

Other observations

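Among genes with a promoter in the RefSeq table, the M-CAT core stood within 250 bases before a start in 9 of 41 genes called higher (22.0%), 6 of 33 called lower (18.2%) and 966 of 7619 tested genes (12.7%). A gene with several promoters counted when any of them held it. These shares are a description and were not tested.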
